A study of Mus musculus with 6 samples.

Results

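*Apoe*, *Trem2*, *Tyrobp*, *Lpl*, *Abca1*, *Abcg1*, *Clu* and *Scarb1* were chosen by name as genes of lipid handling and lipid sensing, and all 8 were found by their symbols in the gene lists of all 6 libraries. The lists held 31053 genes for the cortex and 27998 for the hippocampus, 31537 in all. The libraries came from 2 single-cell preparations of wild-type female C57Bl/6J mice without a transgene or a treatment. In prep 1, the cortices of 3 mice aged 3 weeks were pooled, and in prep 3 the hippocampi of 3 mice aged 5 weeks. White matter was taken away as far as possible, the tissue was digested with dispase II, papain and DNase I, myelin was removed on Percoll, and each pool was loaded as 3 technical replicates on the 10x Genomics Chromium platform, which tags the 3′ end of each mRNA molecule with a unique molecular identifier (UMI). Region, age, preparation and gene list changed together and cannot be told apart, and 27514 genes were on both lists. With 1 biological sample per preparation no p-value was computed. The replicate spread below is that between technical replicates of 1 pool, and intervals are exact intervals at the 95% level that cover counting error only.

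Lipids travel between brain cells on lipoprotein particles, whose main proteins are ApoE and clusterin, the products of *Apoe* and *Clu*. Cholesterol and phospholipid are loaded onto them by the transporters ABCA1 and ABCG1, whose genes are targets of the liver X receptors (LXR), and are taken from them by receptors such as SR-B1, the product of *Scarb1*. Lipoprotein lipase, the product of *Lpl*, cuts triglycerides into fatty acids. TREM2 is a surface receptor of myeloid cells for lipids and lipoproteins, and TYROBP (DAP12) is the adaptor that carries its signal. These genes are known for microglia that meet myelin debris and amyloid, and for lipid supply by astrocytes.

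Levels are UMIs of a gene per 1000000 UMIs of all genes (CPM), summed over the cells of a class. A transcript gives 1 tag whatever its length, so that levels of different genes were set side by side without a length term. Promoter sequences of 3 of the 8 genes were listed in a RefSeq table of the GRCm38.p6 assembly and are given as the 250 bases before the start of transcription, because *Apoe* and *Abca1* were both higher in a microglia-like subcluster described below, *Trem2* was highest in microglia-like cells, and LXR and the myeloid factor *Spi1* are known to act on such genes. Capitals mark the letters of a searched motif on either strand. The LXR motif was a direct repeat of nuclear receptor half-sites 4 bases apart, searched as GGTNA, 5 bases of any kind and GGTCA. The *Spi1* motif was the ETS core GAGGAA.
Apoe: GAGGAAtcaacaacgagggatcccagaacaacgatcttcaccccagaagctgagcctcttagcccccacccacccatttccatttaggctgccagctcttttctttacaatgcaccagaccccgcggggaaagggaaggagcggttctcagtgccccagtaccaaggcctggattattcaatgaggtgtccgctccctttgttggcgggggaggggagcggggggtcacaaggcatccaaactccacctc
Trem2: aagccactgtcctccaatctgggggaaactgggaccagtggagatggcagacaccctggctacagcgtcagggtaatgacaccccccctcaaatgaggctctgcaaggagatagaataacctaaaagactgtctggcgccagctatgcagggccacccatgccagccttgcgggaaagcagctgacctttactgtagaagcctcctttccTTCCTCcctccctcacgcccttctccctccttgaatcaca
Abca1: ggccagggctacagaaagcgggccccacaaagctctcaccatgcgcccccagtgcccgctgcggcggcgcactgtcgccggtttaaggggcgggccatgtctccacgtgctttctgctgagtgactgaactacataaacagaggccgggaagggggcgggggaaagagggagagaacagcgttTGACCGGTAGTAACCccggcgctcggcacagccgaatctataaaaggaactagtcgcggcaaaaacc
The *Apoe* window lay at chr7:19699189-19699438 on the minus strand, with GAGGAA at its first base, 250 bases before the start. The *Trem2* window lay at chr17:48346151-48346400 on the plus strand, with the reverse complement TTCCTC 40 bases before the start. The *Abca1* window lay at chr4:53159896-53160145 on the minus strand, with the LXR motif on the other strand 67 bases before the start. Of 32851 promoter windows of this length, 58 (0.177%) held the LXR motif on either strand and 7639 (23.3%) held GAGGAA, so that the first was rare and the second common. No exon overlapped the windows, and a match of letters is a description of the sequence only. In the GENCODE annotation of the same build the 8 genes lay apart and shared no exon with another gene on either strand. *Apoe* spanned chr7:19696109-19699188 and *Tyrobp* chr7:30413760-30417585, *Trem2* chr17:48346401-48354147 and *Abcg1* chr17:31057675-31117988, *Lpl* chr8:68880491-68907448, *Abca1* chr4:53030787-53159895, *Clu* chr14:65968483-65981547, and *Scarb1* chr5:125277087-125341094.

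The library totals ran from 39662203 to 42097490 UMIs in the cortex and from 43963706 to 50024850 in the hippocampus. After the filters 13320 of 17937 cortical and 14210 of 15336 hippocampal barcodes were kept, with a median of 5800 to 5908 and 6629 to 6914 UMIs per cell. Clustering without the 8 genes, and naming by marker lists that left them out, gave 5907 and 5898 microglia-like cells, 109 and 147 macrophage-like, 2703 and 1974 astrocyte-like, 2417 and 1204 endothelial-like, 174 and 452 pericyte-like, 203 and 153 VSMC-like (vascular smooth muscle) and 57 and 50 fibroblast-like cells in the cortex and the hippocampus. Choroid plexus-like (826) and ependymal-like (211) cells were named in the hippocampus only. Left unnamed were 1139 cortical (8.55%) and 1238 hippocampal cells (8.71%). In the cortex these included a cluster of 247 cells with 12 of 12 endothelial markers, so the endothelial-like class does not hold all endothelial cells. Also unnamed was a cortical cluster of 264 cells with 2 of 10 microglia markers, led by *Tyrobp*. In the main clustering a cluster of 202 cells with 12 of 12 endothelial and 11 pericyte markers was unnamed too. The identity of these cells was not tested, and the cortical microglia-like and pericyte-like classes may not hold all such cells. The summed level of the class's own markers was 33772 and 34406 CPM in microglia-like cells, 24287 and 23835 in astrocyte-like cells, 27063 and 30881 in endothelial-like cells and 264637 in choroid plexus-like cells, and none of these markers was at 0. Macrophage markers summed to 8499 CPM in the cortical and 14428 in the hippocampal macrophage-like cluster, a gap taken up below. Barcodes shared between libraries of 1 preparation made up 0.533% of cortical and 5.27% of hippocampal cells, and 558 of the 826 choroid plexus-like cells (67.6%).

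*Apoe* was the most abundant of the 8 genes in every class described here except the microglia-like cells, and macrophage-like and astrocyte-like cells held the most. In cortical astrocyte-like cells its level was 27905, 29483 and 30596 CPM in the 3 libraries, and in hippocampal ones 27535, 28591 and 28212 CPM. Cortical macrophage-like cells held 21497, 35079 and 32556 CPM, and hippocampal ones 59383, 59604 and 60685 CPM. In the cortex these classes overlapped between libraries, whereas in the hippocampus every macrophage value lay above every astrocyte value. The cortical macrophage-like cluster was mixed, as described below. Its 81 cells that were macrophage-like by their own marker UMIs held 52577, 54728 and 52956 CPM, above every cortical astrocyte value. Ependymal-like cells followed in the hippocampus at 10064 ± 323 CPM (SD, n = 3 technical replicates), then monocyte-like cells at 8814 ± 4921 and fibroblast-like cells at 8592 ± 2700 and choroid plexus-like cells at 3245 ± 347, with 3406, 2811 and 3416 CPM in the libraries. Fibroblast-like cells of the cortex held 12632 ± 2169 CPM.

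Microglia-like cells held far less *Apoe*, with 1451, 1537 and 1645 CPM in the cortex and 1478, 1485 and 1228 CPM in the hippocampus. Astrocyte-like cells exceeded them 19.0-fold in the cortex and 20.1-fold in the hippocampus. Endothelial-like cells stood at 982 ± 48.4 and 976 ± 59.7 CPM, below the microglia-like cells in all libraries of both preparations. Free RNA bears on such low values. Barcodes of red blood cells, which should not express *Apoe*, carried it at 1363 UMIs per 1000000 UMIs other than haemoglobin in the cortex (1160 UMIs). In the hippocampus the value was 1255 (26 UMIs). It describes the make-up of the RNA other than haemoglobin in these barcodes and is not a floor for whole cells. Whether the endothelial level is expression was not tested. With free RNA subtracted by an estimate from the marker genes of other classes, microglia-like cells were left at 1386 and 1252 CPM. Astrocyte-like cells were left at 31349 and 31529 CPM, and endothelial-like cells at 0 CPM in both preparations. For the endothelial-like cells the estimate put 28.2 to 31.7% of the cortical and 27.7 to 29.7% of the hippocampal RNA as free. It rested on microglia and astrocyte markers. The microglia markers, which include *Sparc*, summed to 4219 and 3874 CPM in endothelial-like cells, beside 26.5 and 72.3 CPM of *Trem2*. The 0 depends on these lists and is not read as absence.

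The share of cells with at least 1 *Apoe* UMI did not follow the levels in every class. After each cell was thinned to 1000 UMIs, 99.6% of cortical and 99.2% of hippocampal astrocyte-like cells held *Apoe*, and 44.4% and 39.6% of microglia-like cells (74.6% and 74.1% unthinned). In macrophage-like cells the thinned share was 84.2% and 100%, and in choroid plexus-like cells 87.1%, over the 319 of 826 cells that reached 1000 UMIs. Endothelial-like cells stood at 43.7% and 50.2%, close to or above the microglia-like share although their level was lower. In red blood cell barcodes, with a median of 209 and 206.5 UMIs other than haemoglobin, the shares were 19.9% (95% interval 18.6 to 21.3%) of 3265 and 25.6% (16.4 to 36.8%) of 78. These barcodes were not thinned, here and below, so their shares were taken at another depth than those of the classes.

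**Figure D1:**
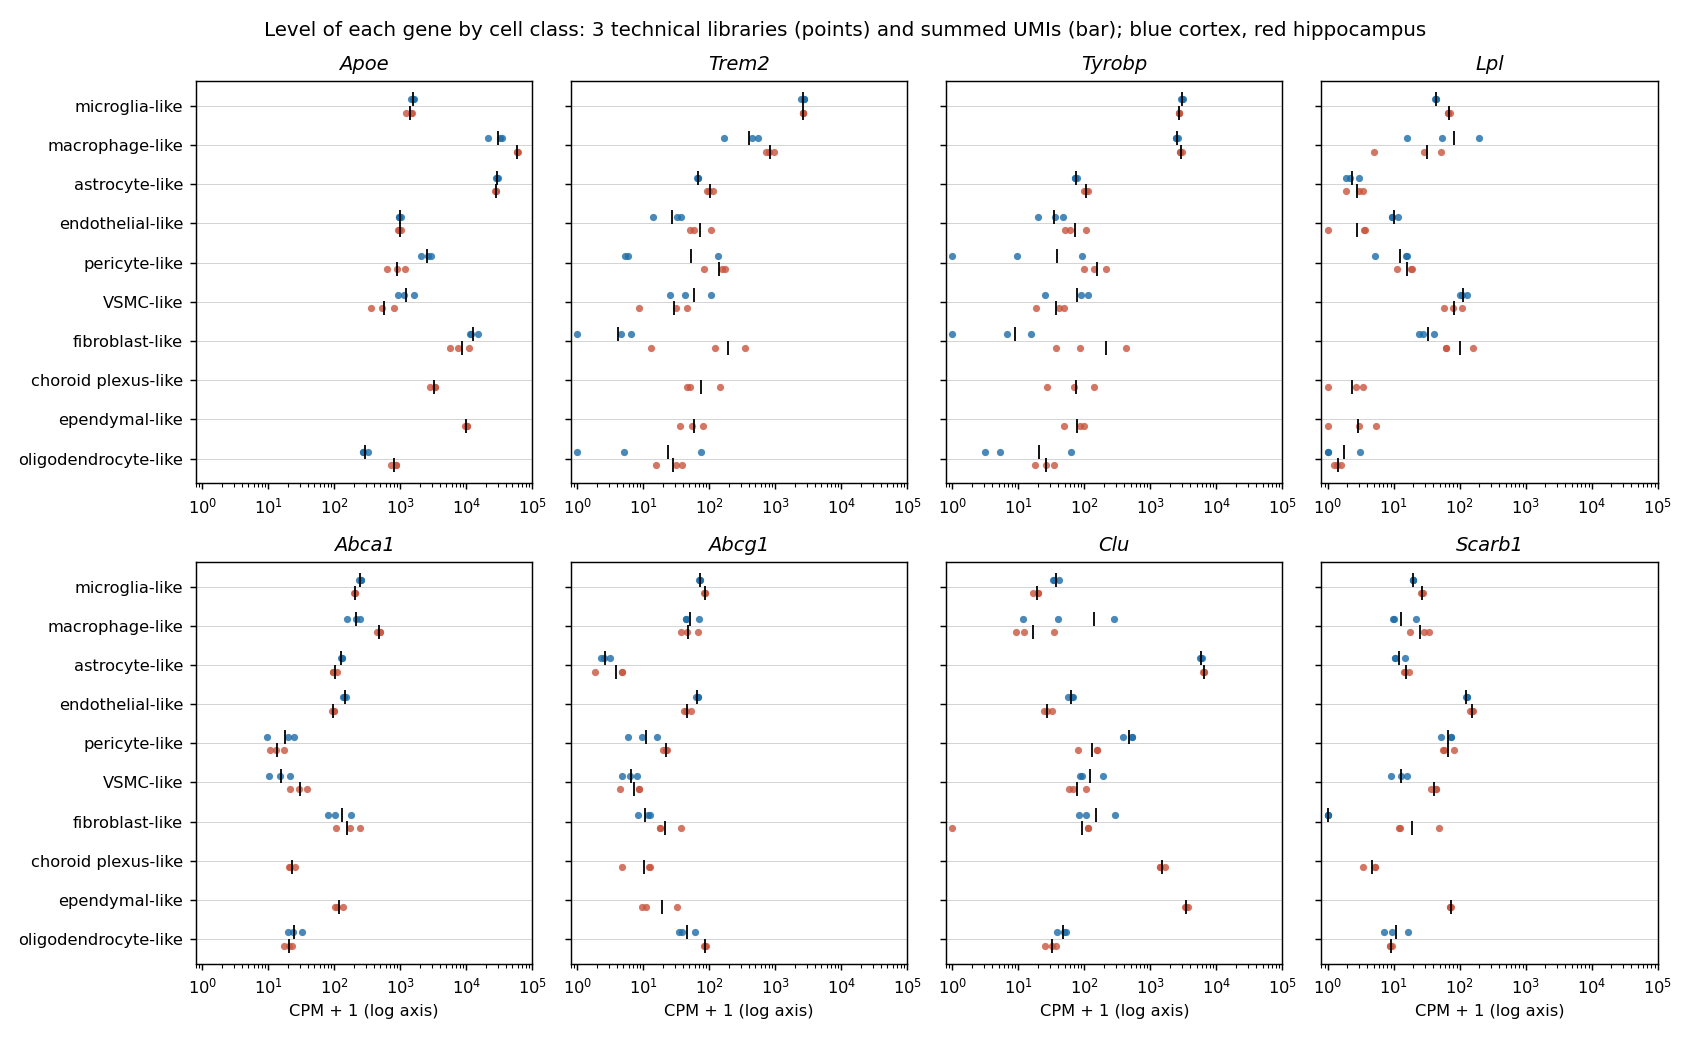
Level of each of the 8 genes by cell class as CPM + 1 on a log axis, with 1 point per technical replicate, a bar for the summed UMIs of the 3 replicates, cortex in blue and hippocampus in red. Apoe lies at 29291 and 28112 CPM in astrocyte-like cells, Trem2 stands out in microglia-like cells at 2637 and 2616 CPM, and Clu in astrocyte-like, ependymal-like and choroid plexus-like cells.

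*Clu*, the other lipoprotein protein, was an astrocyte, ependymal and choroid plexus gene. Astrocyte-like cells held 6018, 5610 and 5915 CPM in the cortex and 6265, 6493 and 6504 CPM in the hippocampus, and ependymal-like cells 3308, 3413 and 3710 CPM. In choroid plexus-like cells the level was 1387, 1381 and 1660 CPM. None of these classes overlapped with the next in the hippocampus, and the next class down, pericyte-like cells, held 129 ± 43.7 CPM. After thinning, 96.6% and 94.1% of astrocyte-like cells, 91.7% of ependymal-like and 67.7% of choroid plexus-like cells had a *Clu* UMI. Of the unthinned red blood cell barcodes 3.92% had one in the cortex and 0 of 78 in the hippocampus, which allows up to 4.62% (exact interval). Microglia-like cells held 35.4 ± 4.31 and 17.9 ± 1.95 CPM, values that came to 0.401 and 0 CPM once free RNA was subtracted. For microglia-like cells that estimate rested on astrocyte and endothelial markers, so a low remainder of *Clu* is not read as absence.

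Choroid plexus-like cells were shallow, with a median of 875 UMIs. Against astrocyte-like cells of the same libraries their *Apoe* level was 0.115 of the astrocyte level, *Clu* 0.230, *Abca1* 0.217 and *Scarb1* 0.259. These were 4 of 6 genes past 2-fold, all lower, beside 52.4% of all 10042 genes compared. Of all genes 42.2% were lower and 10.2% higher in choroid plexus-like cells, with a median log2 ratio of -0.73. Choroid plexus markers summed to 264637 CPM in these cells, and their part in the lower CPM of other genes was not tested. *Lpl* (4 UMIs) and *Abcg1* (27 UMIs) were too rare in choroid plexus-like cells to be compared. Without the barcodes shared between libraries the choroid plexus-like level was 3128 CPM for *Apoe* and 1499 CPM for *Clu*, within the replicate spread of the values with them.

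*Trem2* and *Tyrobp*, the receptor and its adaptor, stood highest in myeloid cells. *Trem2* was at 2460, 2706 and 2741 CPM in cortical and 2583, 2639 and 2626 CPM in hippocampal microglia-like cells, the highest class in both by a gap without overlap. Macrophage-like cells held 169, 435 and 543 CPM in the cortex and 954, 806 and 726 CPM in the hippocampus, and monocyte-like cells 234 ± 99.3 and 258 ± 75.7 CPM. The receptor was thus lower in macrophage-like than in microglia-like cells in every library. After thinning, 91.2% and 91.4% of microglia-like cells had a *Trem2* UMI (99.7% unthinned in both), against 32.6% and 46.3% of macrophage-like cells. The share was 1.75% and 5.13% in the unthinned red blood cell barcodes.

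*Tyrobp* did not follow *Trem2* among the myeloid classes. Microglia-like cells held 2936, 3020 and 3156 CPM in the cortex and 2677, 2711 and 2693 CPM in the hippocampus. Macrophage-like cells held 2474, 2458 and 2588 CPM, and 2850, 2797 and 2966 CPM. Monocyte-like cells held 4044 ± 74.1 CPM in the cortex, the highest value of the gene, and 1833 ± 273 CPM in the hippocampus. The adaptor was therefore near the microglial level in macrophage-like cells, where the receptor was not: the macrophage-like over microglia-like ratio was 0.824 and 1.06 for *Tyrobp* but 0.152 and 0.319 for *Trem2*. In the hippocampus 81 of the 204 monocyte-like barcodes (39.7%) were shared between libraries.

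Low *Trem2* and *Tyrobp* levels appeared in cells outside the myeloid lineage, and in astrocyte-like cells most of those UMIs sat in barcodes called as doublets. Astrocyte-like cells held 65.6 CPM of *Trem2* in the cortex and 100 in the hippocampus. The 105 cortical doublets of the class carried 7.66% of its UMIs but 73.0% of its *Trem2* and 67.3% of its *Tyrobp* UMIs, and the 83 hippocampal doublets 7.23% of the UMIs but 81.5% and 81.0%. Without doublets *Trem2* was left at 19.2 and 20.0 CPM, and *Tyrobp* at 25.7 and 21.5 CPM.

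*Scarb1*, the gene of SR-B1, which takes up cholesterol from lipoproteins, was highest in endothelial-like cells. Their level was 126, 127 and 124 CPM in the cortex and 154, 145 and 157 CPM in the hippocampus, above every other class in all libraries. Pericyte-like cells held 72.1, 71.9 and 51.3 CPM, and 81.9, 57.3 and 55.5 CPM. Cortical monocyte-like cells, at 89.55, 83.9 and 91.8 CPM (29 UMIs), lay above the cortical pericyte-like cells without overlap. Ependymal-like cells, at 72.2 ± 2.13 CPM, overlapped with the hippocampal pericyte-like cells. Microglia-like cells held 18.5 ± 0.0265 and 25.7 ± 1.02 CPM, and choroid plexus-like cells 3.76 CPM (11 UMIs). After thinning 11.5% and 15.0% of endothelial-like cells had a *Scarb1* UMI (60.8% and 65.1% unthinned), against 0.153% of unthinned cortical red blood cell barcodes.

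*Lpl*, the gene of the lipase, was low in every class, and VSMC-like, fibroblast-like and myeloid cells held the most. VSMC-like cells held 128, 107 and 101 CPM in the cortex and 108, 79.3 and 58.0 CPM in the hippocampus. Microglia-like cells held 42.7, 41.1 and 43.4 CPM, and 65.4, 70.6 and 65.0 CPM. The VSMC-like cells lay above the microglia-like cells without overlap in the cortex and overlapped with them in the hippocampus. Endothelial markers summed to 8022 CPM in hippocampal and 931 CPM in cortical VSMC-like cells. Without doublets, endothelial-like cells themselves held 9.36 CPM of *Lpl* in the cortex and 0.556 CPM in the hippocampus. The part of endothelial RNA in the *Lpl* level of VSMC-like cells was not tested. Hippocampal fibroblast-like cells held 60.2, 62.3 and 157 CPM (44 UMIs) and cortical ones 31.8 ± 9.06 CPM, and cortical monocyte-like cells 215, 8.39 and 153 CPM (40 UMIs), values that overlapped with those of the VSMC-like cells in the hippocampus and in the cortex, respectively. Astrocyte-like cells held 1.38 CPM (24 UMIs) and 1.77 CPM (24 UMIs). The thinned share of cells with an *Lpl* UMI was 9.41% and 5.23% of VSMC-like and 3.51% and 4.73% of microglia-like cells. It was 0.0306% in unthinned cortical red blood cell barcodes.

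*Abca1* and *Abcg1*, the exporters, differed from each other most in astrocyte-like cells. *Abca1* was at 254, 256 and 235 CPM in cortical and 205, 204 and 201 CPM in hippocampal microglia-like cells. Macrophage-like cells held 153, 249 and 215 CPM in the cortex, overlapping with the microglia-like cells, and 493, 448 and 486 CPM in the hippocampus, above all other classes. The cortical cells that were macrophage-like by their own markers held 402, 401 and 378 CPM, above the cortical microglia-like cells. Astrocyte-like cells held 128, 125 and 129 CPM, and 110, 96.3 and 96.0 CPM. Endothelial-like cells were near them at 142 ± 7.15 and 96.6 ± 4.31 CPM, whereas pericyte-like cells held 16.99 and 12.7 CPM. *Abcg1* was at 70.2, 71.0 and 68.9 CPM in cortical microglia-like cells and 85.6, 82.4 and 83.9 CPM in hippocampal ones. Oligodendrocyte-like cells of the hippocampus, at 85.0 ± 3.89 CPM, overlapped with the latter. Endothelial-like cells held 64.8 ± 2.75 and 45.1 ± 6.32 CPM of *Abcg1*. In astrocyte-like cells it was close to 0, at 1.66 CPM (29 UMIs) and 2.80 CPM (38 UMIs), beside 2220 and 1369 *Abca1* UMIs in the same cells.

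Set against microglia-like cells of the same preparation, astrocyte-like cells differed past 2-fold in 6 of 8 genes in the cortex and in 7 of 8 in the hippocampus, where 50.2% and 48.8% of all genes compared did so. *Clu* was 165-fold and 358-fold higher, over microglial levels of 35.4 and 17.9 CPM, whose source was not tested. *Trem2*, *Tyrobp*, *Lpl* and *Abcg1* were lower 40.2-fold, 41.9-fold, 30.8-fold and 42.1-fold in the cortex. Within the vascular cells, pericyte-like cells stood apart from endothelial-like cells in 4 of 8 genes in the cortex (background 29.2%) and 5 of 7 in the hippocampus (background 26.9%). Without cortical replicate 2 the first count was 7, and without hippocampal replicate 1 the second was 3. *Abca1*, at 0.119 and 0.131 of the endothelial level, and *Abcg1*, at 0.153 and 0.462, were lower in both, and *Scarb1*, at 0.427, in the hippocampus. *Clu* (4.88-fold) and *Tyrobp* (2.12-fold) were higher in hippocampal pericyte-like cells. Without doublets *Clu* was left there at 62.8 CPM (110 UMIs) against 24.2 CPM in endothelial-like cells, and *Tyrobp* at 39.4 against 19.8 CPM. The cortical pericyte-like excess of *Apoe* (2.59-fold) and *Clu* (7.78-fold) sat in 11 doublets, which held 13.8% of the UMIs of the class but 77.5% of its *Apoe* and 92.3% of its *Clu*. Without doublets cortical pericyte-like cells held 664 CPM of *Apoe*, below the 868 CPM of endothelial-like cells. Their *Clu*, at 42.7 CPM (26 UMIs), was then close to the endothelial 44.7 CPM. Astrocyte markers summed to 2577 CPM in cortical pericyte-like cells (1876 to 2970 over the libraries), and their part in the level was not tested.

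The comparison of the preparations asked how the genes differed between cortex at 3 weeks and hippocampus at 5 weeks. In microglia-like cells most of the 8 genes were close. *Trem2* stood at 0.992 of the cortical level, *Apoe* at 0.908, *Tyrobp* at 0.887 and *Abca1* at 0.819. *Abcg1* was 1.198-fold and *Scarb1* 1.39-fold (1.26 to 1.54) higher in the hippocampus. *Lpl* was 1.58-fold higher in the hippocampus (1.49 to 1.69), and *Clu* was at 0.506 of the cortical level (0.461 to 0.555). These were 2 of 8 genes past 1.5-fold, with no overlap between libraries for either. Of all 11111 genes compared 10.7% passed, 7.08% higher in the hippocampus and 3.64% higher in the cortex. For *Clu*, 33.9% of the cortical microglia-like UMIs were in doublets, astrocyte markers summed to 340 CPM (304 to 377) in the cortex and 246 CPM (235 to 253) in the hippocampus, and without doublets *Clu* was at 0.724 of the cortical level (0.653 to 0.802). *Lpl* was 1.60-fold higher without doublets.

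**Figure D2:**
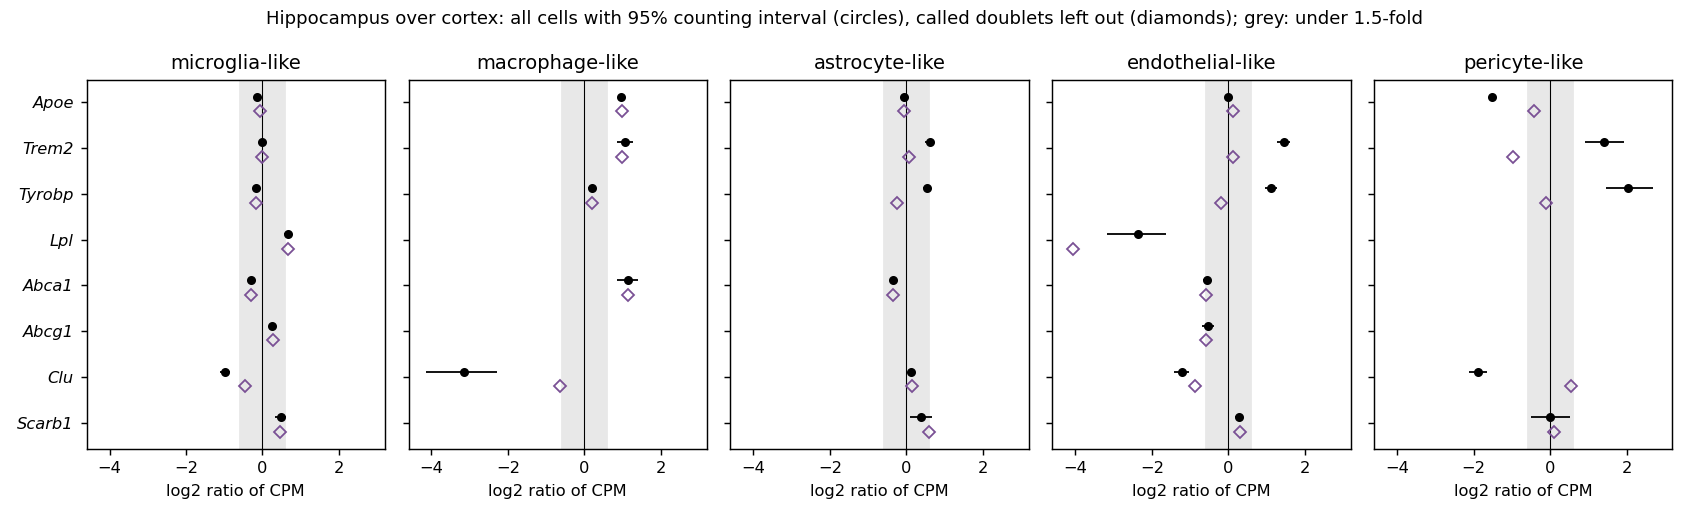
Log2 ratio of the hippocampal to the cortical CPM of each gene in 5 cell classes, as circles over all cells with 95% counting intervals and as diamonds with the called doublets left out, on a grey band that marks less than 1.5-fold. In microglia-like cells only Lpl at 1.58-fold and Clu at 0.506 leave the band, and the Trem2 and Tyrobp values of astrocyte-like and endothelial-like cells lie inside it without doublets.

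In macrophage-like cells the cluster as a whole gave larger values. *Apoe* was 1.94-fold (1.91 to 1.97), *Trem2* 2.08-fold (1.82 to 2.40) and *Abca1* 2.20-fold (1.82 to 2.66) higher in the hippocampus, and *Clu* was at 0.112 of the cortical level, so that 4 of 5 genes passed 1.5-fold, beside 35.4% of 2164 genes compared (23.6% higher in the hippocampus, 11.7% higher in the cortex). The *Clu* libraries overlapped, and 82.4% of the cortical *Clu* UMIs were in 5 doublets. The cortical cluster was mixed. Of its 109 cells 81 were macrophage-like by their own marker UMIs, and the other 28, of which 19 were monocyte-like by theirs, held 47464 ± 1431 CPM of MHC class II genes against 766 CPM in the 81. In the hippocampus 135 of 147 cells were macrophage-like by their own markers, with 498 CPM of MHC class II genes.

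The 28 other cells of the cortex differed from the 81 in most of the genes. They held 6640 CPM of *Apoe*, 143 of *Trem2* and 24.8 of *Abca1*, and 165 CPM of *Lpl*, which was all 60 *Lpl* UMIs of the cluster. Among cells that were macrophage-like by their own markers *Apoe* was at 52577, 54728 and 52956 CPM in the cortex and 62843, 65289 and 62533 CPM in the hippocampus, a 1.19-fold difference (1.17 to 1.21) with no overlap. *Abca1* was at 402, 401 and 378 CPM against 499, 493 and 486 CPM, 1.254-fold higher in the hippocampus (1.03 to 1.53). *Trem2* was at 402, 609 and 827 CPM against 805, 659 and 578 CPM, with overlap and a ratio of 1.07 (0.912 to 1.252), and *Tyrobp* had a ratio of 0.978 (0.909 to 1.05). In these cells 0 of the 4 genes with enough UMIs passed 1.5-fold, and no share over all genes is given for them. *Clu*, with 29 cortical and 9 hippocampal UMIs, was too rare to be counted and had a ratio of 0.180 (0.0751 to 0.391). *Lpl* was at 36.3 CPM in the hippocampus and had 0 UMIs in the cortex, which allows a level of up to 7.82 CPM.

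**Figure D3:**
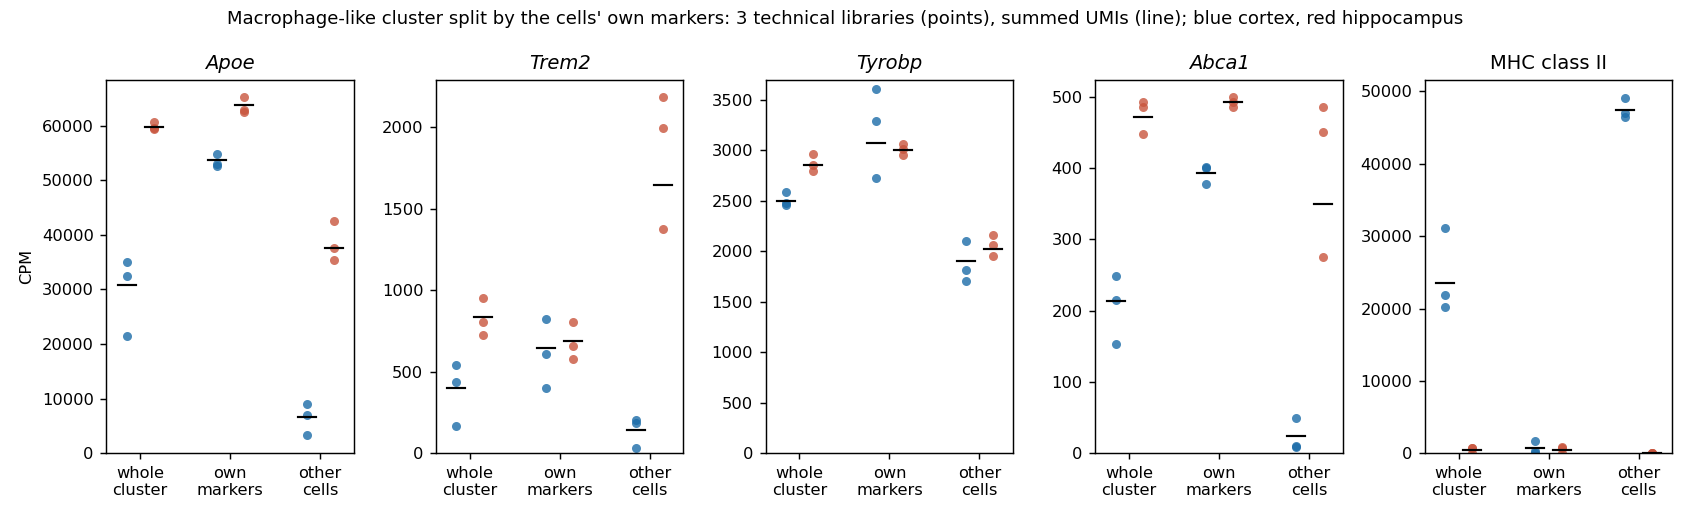
CPM of Apoe, Trem2, Tyrobp, Abca1 and summed MHC class II genes in the whole macrophage-like cluster, in its cells that were macrophage-like by their own marker UMIs and in its other cells, with 1 point per technical replicate, a line for the summed UMIs, cortex in blue and hippocampus in red. The Apoe gap between the preparations is 1.94-fold over the whole cluster and 1.19-fold in the cells chosen by their own markers, and the other cells of the cortex hold 47464 CPM of MHC class II genes.

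Against microglia-like cells of the same preparation, the whole cluster passed 2-fold in 3 of 8 genes in the cortex (background 31.2%) and in 4 of 8 in the hippocampus (background 24.3%), with *Apoe* 20.0-fold and 42.6-fold higher. By own markers the cortical macrophage-like cells held 34.8-fold (34.2 to 35.4) and the hippocampal ones 45.5-fold (44.9 to 46.1) more *Apoe* than microglia-like cells, and 0.244 (0.214 to 0.276) and 0.263 (0.239 to 0.288) of their *Trem2*. *Abca1* was 1.58-fold (1.34 to 1.86) and 2.42-fold (2.16 to 2.71) higher, and *Tyrobp* had ratios of 1.01 (0.954 to 1.07) and 1.11 (1.07 to 1.17). Both preparations thus gave macrophage-like cells of high *Apoe*, low *Trem2* and near-microglial *Tyrobp*, over the whole cluster and with the mixed cells left out. Microglia markers summed to 2563 CPM in the cortical and 5923 CPM in the hippocampal cluster, and their part in the *Trem2* level was not tested.

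In astrocyte-like cells 1 of 6 genes compared passed 1.5-fold, beside 21.0% of 11071 genes (13.1% higher in the hippocampus, 7.92% higher in the cortex). It was *Trem2*, at 1.53-fold (1.41 to 1.65), whose UMIs lay mainly in doublets, and without them its ratio was 1.04 (0.879 to 1.23). Summed microglia markers were 1067 CPM (1018 to 1114) in cortical and 1761 CPM (1663 to 1820) in hippocampal astrocyte-like cells. The genes that astrocytes are known for stayed under 1.5-fold between the preparations. *Apoe* was at 0.960 and *Abca1* at 0.792 of the cortical level, and *Clu* was 1.10-fold higher. The libraries did not overlap for *Abca1* and *Clu*. *Tyrobp* had a ratio of 1.45 with doublets and 0.838 (0.717 to 0.980) without, and *Scarb1* 1.30 with doublets and 1.51 (1.19 to 1.91) without, which is past the limit. *Lpl* and *Abcg1* had too few UMIs to be compared.

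In endothelial-like cells 4 of 8 genes passed, beside 13.3% of 10319 genes (8.89% higher in the hippocampus, 4.46% higher in the cortex). *Trem2* was 2.73-fold and *Tyrobp* 2.17-fold higher in the hippocampus, and 75.3% and 73.8% of their hippocampal UMIs were in 38 doublets that held 5.09% of the UMIs of the class. Without doublets the ratios were 1.08 (0.896 to 1.30) and 0.875 (0.732 to 1.04). *Clu* was at 0.429 of the cortical level with doublets and at 0.543 (0.466 to 0.630) without. *Lpl* went the other way from its microglial difference. Cortical endothelial-like cells held 8.55, 8.31 and 10.8 CPM and hippocampal ones 2.55, 2.69 and 0 CPM, a ratio of 0.195 (0.111 to 0.321), and without doublets the levels were 9.36 CPM (192 UMIs) and 0.556 CPM (5 UMIs). *Lpl* was thus lower in hippocampal endothelial-like cells in all libraries, at 1.79 CPM. *Apoe* was level at 0.994, *Abca1* and *Abcg1* stood at 0.678 and 0.696 of the cortical level, and *Scarb1* was 1.21-fold higher (1.13 to 1.29).

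Pericyte-like cells passed in 4 of 5 genes, beside 13.6% of 4596 genes. *Apoe* was at 0.350 and *Clu* at 0.269 of the cortical level, and *Trem2* was 2.64-fold and *Tyrobp* 4.12-fold higher in the hippocampus. Doublets held 50.7% of the hippocampal *Apoe* and 80.2% of the hippocampal *Trem2* UMIs, and 0 of the 37 cortical *Trem2* and 26 cortical *Tyrobp* UMIs. The cortical *Trem2* level was 4.81, 132 and 4.27 CPM in the libraries, and without the second replicate the log2 ratio was 4.63 in place of 1.39. For *Tyrobp*, at 0, 90.8 and 8.55 CPM in the cortex, it was 4.76 in place of 2.02. Without doublets the ratios were 0.744 (0.660 to 0.839) for *Apoe*, 1.47 (0.953 to 2.35) for *Clu*, 0.508 (0.328 to 0.793) for *Trem2* and 0.923 (0.580 to 1.51) for *Tyrobp*. *Scarb1* had a ratio of 0.997 (0.707 to 1.43).

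Microglia-like cells were clustered again without the 8 genes and the other lipid genes, which gave 9 subclusters of at least 50 cells in each preparation. In both, the leading genes of 1 subcluster included *Ccl4*, *Csf1* and *Gas2l3* (and *Lpl* in the hippocampus), and it held 238 cortical cells (4.03%) and 316 hippocampal cells (5.36%). *Csf1* encodes a growth factor of microglia and *Ccl4* a chemokine. The comparison of this subcluster with the other microglia-like cells was chosen after the levels had been seen and is a description.

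*Lpl* was the member that differed most there. In the cortex it stood at 245 CPM inside against 31.6 CPM outside, 7.77-fold higher (6.92 to 8.72), with 7.61-fold, 7.01-fold and 8.69-fold in the 3 libraries. In the hippocampus it stood at 369 against 45.5 CPM, 8.12-fold higher (7.504 to 8.77), with 8.81-fold, 6.53-fold and 9.64-fold. The subcluster held 29.3% and 36.8% of all microglia-like *Lpl* UMIs. *Abcg1* was 3.12-fold and 2.46-fold higher, *Apoe* 1.83-fold and 2.70-fold, and *Abca1* 1.72-fold and 1.82-fold. *Trem2* (1.17-fold and 1.21-fold) and *Tyrobp* (1.14-fold and 1.22-fold) were close to the level of the other cells. Past 2-fold were 3 of 8 genes in each preparation, *Lpl*, *Abcg1* and *Clu* (lower) in the cortex and *Lpl*, *Abcg1* and *Apoe* in the hippocampus, beside 7.19% and 6.69% of all genes compared. The cortical *Clu* level of the other cells includes a subcluster with astrocyte markers, described below, that held 71.8% of the microglia-like *Clu* UMIs. At the other settings that gave a subcluster with these leading genes, the *Lpl* ratio was 7.71 and 7.39 in the cortex and 8.22 and 8.12 in the hippocampus.

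Between the preparations *Lpl* differed both inside and outside the subcluster. Inside it was 1.50-fold higher in the hippocampus (1.34 to 1.69), and outside 1.44-fold (1.33 to 1.56). *Apoe* was 1.253-fold higher in the hippocampus inside the subcluster (1.21 to 1.30) and at 0.849 of the cortical level outside it (0.839 to 0.860), where the cortical cells include the subcluster with astrocyte markers, which held 11.6% of the microglia-like *Apoe* UMIs. Over all microglia-like cells the *Apoe* libraries overlapped, and without doublets the ratio was 0.962 (0.951 to 0.974). *Trem2* was level in both, at 1.01 (0.979 to 1.05) and 0.987 (0.978 to 0.996).

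Of the other lipid genes with enough UMIs, 10 of 72 passed 2-fold in that subcluster in the cortex and 8 of 73 in the hippocampus, beside the 7.19% and 6.69% of all genes, and those named here were chosen after their values were seen. *Plin2*, which coats lipid droplets, was 4.23-fold and 3.26-fold higher, *Nceh1*, a cholesteryl ester hydrolase, 4.17-fold and 4.63-fold, and *Scd2*, a fatty acid desaturase, 2.74-fold and 2.76-fold. *Hilpda*, a lipid droplet protein, was 2.48-fold and 2.08-fold higher. *Fabp5*, a fatty acid binding protein, was 4.76-fold higher in the hippocampus, and *Dhcr7* of cholesterol synthesis 3.05-fold higher in the cortex. *Acsl3*, an acyl-CoA synthetase, was lower in both, at 0.414 and 0.483.

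The other subclusters differed mainly in *Apoe*. In the cortex it ran from 1042 to 4598 CPM, apart from a subcluster of 140 cells at 7006 CPM in which astrocyte markers summed to 3847 CPM, against 225 to 277 CPM in the rest, and 30.7% of the cells were called doublets. That subcluster held 71.8% of all microglia-like *Clu* UMIs of the cortex and 11.6% of the *Apoe* UMIs, and the part of astrocyte RNA in them was not tested. In the hippocampus *Apoe* ran from 241 CPM in 63 cells to 3400 CPM. It stood at 420 CPM in a subcluster of 1808 cells and at 2701 CPM in a subcluster of 832 cells led by *Ier3*, *Nfkbiz* and *Socs3*. In the hippocampal subcluster of 152 cells led by the interferon genes *Ifitm3* and *Ifit3*, *Lpl* was at 45.9, 295 and 69.2 CPM, a level set by the second replicate. *Trem2* varied far less, from 1931 to 3068 CPM in the cortex and 2362 to 3111 CPM in the hippocampus, and *Tyrobp* from 2501 to 4414 and 1991 to 3243 CPM.

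The genes around the 8 were taken from 7 lists of 120 lipid genes. In microglia-like cells 8 of 80 with enough UMIs passed 1.5-fold between the preparations, 4 in each direction, with a median log2 ratio of 0.05 against 0.10 over all genes. In astrocyte-like cells 15 of 84 passed, 11 higher and 4 lower in the hippocampus (median 0.21 against 0.08), and in endothelial-like cells 10 of 75, 6 higher and 4 lower (median 0.09 against 0.14). These shares lay near the backgrounds of 10.7%, 21.0% and 13.3% given above. In macrophage-like cells 11 of 26 passed, 9 of them higher in the hippocampus, over the whole mixed cluster, beside 35.4% of all genes compared (23.6% higher in the hippocampus).

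Among apolipoproteins and lipoprotein enzymes, 2 of 7 passed in microglia-like, 2 of 8 in astrocyte-like and 2 of 7 in endothelial-like cells. *Apoc1*, an exchangeable apolipoprotein, was 3.12-fold and *Angptl4*, an inhibitor of the lipase, 2.16-fold higher in hippocampal astrocyte-like cells. *Apod* was 4.97-fold higher in microglia-like cells, from a level of 0.974 CPM. *Apoa2* was at 0.418 in endothelial-like cells. Among the lipoprotein receptors 1 of 7, 2 of 8 and 2 of 7 passed, with *Sorl1* 1.73-fold higher in microglia-like cells, *Vldlr* at 0.586 in astrocyte-like cells, and *Lrp1* 1.78-fold higher in endothelial-like cells. The receptors named thus did not share a direction.

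Of the genes of *Trem2* and *Tyrobp* signalling 0 of 13 passed in microglia-like cells, where they act. In astrocyte-like cells 4 of 8 and in endothelial-like cells 2 of 7 passed, all higher in the hippocampus, such as the myeloid factor *Spi1* (2.70-fold) and the microglial lectin *Siglech* (2.34-fold) in endothelial-like cells and the phosphatase gene *Inpp5d* (1.70-fold) and *Vav1* (1.57-fold) in astrocyte-like cells. These are myeloid genes, and the libraries of the preparations overlapped for *Siglech* and *Vav1*. Summed microglia markers were higher in hippocampal than in cortical astrocyte-like cells, as given above. In endothelial-like cells the sum came to 4219 CPM (4020 to 4335) in the cortex and 3874 CPM (3687 to 4150) in the hippocampus. *Trem2* and *Tyrobp* were higher in hippocampal endothelial-like cells, with most of their hippocampal UMIs in doublets, as given above. The marker list includes *Sparc*, and the sum is not taken as a measure of microglial RNA, whose part was not tested. Among the other ABC transporters 0 of 6 passed in microglia-like, 4 of 10 in astrocyte-like and 2 of 6 in endothelial-like cells. *Abca8a* was 8.88-fold higher in hippocampal astrocyte-like cells, from 1.38 to 12.2 CPM, *Abca8b* 2.92-fold, *Abcg2* was at 0.593, and *Abca2* was 1.93-fold higher in endothelial-like cells.

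Cholesterol synthesis was nearly level between the preparations. In astrocyte-like cells 0 of 23 genes passed and in endothelial-like cells 0 of 22, where *Cyp51* was at 0.715. In microglia-like cells 2 of 22 passed, *Srebf2*, the transcription factor of the pathway, at 0.539 and *Stard4*, a sterol carrier, at 0.459, and *Hsd17b7* stood at 1.42. In the LXR and cholesterol turnover list 1 of 10, 1 of 12 and 0 of 11 passed. *Nceh1* was 1.88-fold higher in hippocampal microglia-like cells, and *Cyp7b1*, an oxysterol hydroxylase, 1.76-fold in astrocyte-like cells, from 101 to 177 CPM. *Osbpl1a* and *Mylip* had ratios of 1.50 and 1.49 in endothelial-like cells, just short of the limit. Of the fatty acid and lipid droplet genes 2 of 15 passed in each of the 3 classes, all but 1 lower in the hippocampus. *Scd1* stood at 0.362 and *Fabp5* at 0.398 in endothelial-like cells, *Acsl1* at 0.514 in astrocyte-like cells and *Fabp3* at 0.609 in microglia-like cells, where its libraries overlapped.

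The genes whose levels ran most like each member were ranked by Pearson's r of log2(CPM + 1) over 23 classes and preparations, among 8850 genes. The points share libraries and free RNA, so the values are a description. For *Trem2* they were *Cx3cr1* (0.985), *C1qa* and *C1qc*, for *Tyrobp* *Fcer1g* (0.996), *Laptm5* and *Fermt3*, and for *Clu* *Mt3* (0.964), *Plcd4* and *Ppargc1a*. *Lpl* had *Junb* (0.890), *Fosb* and *Fos*. The likeness was weaker for *Abcg1* with *Grb2* (0.846), *Pak2* and *Elmo1*, for *Apoe* with *Pla2g7* (0.799), *Selenbp1* and *Grina*, for *Abca1* with *Nrp2* (0.803), *Rin2* and *Dcxr*, and for *Scarb1* with *Rgs3* (0.765), *Zdhhc18* and *Api5*.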

How the data were processed

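The files held counts: the authors deposited, per library, a matrix of unnormalized UMI counts per gene and cell barcode with its gene and barcode lists. The labels name Cell Ranger 5.0.1 and mm10, while the matrix headers name 3.0.1 (cortex) and 3.1.0 (hippocampus), so that the version behind each matrix is uncertain. Every barcode in the files had at least 500 UMIs. Prep 2 was not analysed here. The filters of the study were applied (250 to 6000 genes, less than 25% of UMIs mitochondrial), and the remaining barcodes were clustered per preparation with Seurat 5.3.0 in R 4.3.3 (scale factor of 10000, 2000 variable genes, integration of the replicates, 30 principal components, resolution 0.5). The 8 genes and 120 pathway genes were left out of the variable genes and of all marker lists. A cluster was named, with the ending -like, from at least 3 detected markers. It was left unnamed where its leading genes held more markers of another class. The same held where its depth was low and its leading genes held none of its own markers. Pericyte-like and VSMC-like cells were named at resolution 1.0, a choice made after seeing the data, as were the cells chosen by their own markers within the macrophage-like cluster, the comparison of the *Csf1* subcluster and the counts for pericyte-like and choroid plexus-like cells. Members, pathway lists and marker lists were chosen with earlier results of these data known.

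Counts were summed per class and library and divided by the summed UMIs (CPM). A gene was compared between groups where it had at least 100 UMIs in the cells compared, and passed at 1.5-fold between preparations or 2-fold between classes. The pools are 1 biological sample per preparation, so no test was run, the SD is over 3 technical replicates, and intervals are exact (Poisson rate ratio or Clopper-Pearson) and cover counting error only. Doublets were called with Scrublet in scanpy 1.11.5 (0.8% per 1000 barcodes) and kept in the main values. Levels and shares were set beside those of red blood cell barcodes (under 250 genes, at least 50% haemoglobin UMIs). Free RNA was subtracted in an alternative with another profile, the sum over all barcodes of a library, and its share in a class was taken from marker genes of other classes. For shares of cells, 1000 UMIs were drawn from every cell that held as many. The genes named are the 8 members, up to 4 genes per pathway list with the largest ratios in either direction among those compared in microglia-like, astrocyte-like and endothelial-like cells, and for each member the 3 genes with the highest Pearson's r among those with at least 50 CPM in 1 class, and any others are said to have been chosen after their values were seen. A gene that the rule selects is not reported here. The code, tested on simulated counts, used matplotlib 3.10.9, pandas 2.3.3, scipy 1.17.1 and numpy 2.4.6 under Python 3.11.15. Coordinates came from GENCODE (GRCm38).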

Additional observations from a re-analysis of the deposited data

Results flagged for a closer look

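The ratio of macrophage-like to microglia-like cells had opposite directions in the preparations for 2 genes, with every technical replicate on its own side, and the difference itself was not tested. For *Tyrobp* it was 0.824 in the cortex (0.843, 0.814 and 0.820 in the replicates) and 1.06 in the hippocampus (1.06, 1.03 and 1.10). For *Abca1* it was 0.863 (0.601, 0.975 and 0.914) and 2.32 (2.41, 2.20 and 2.42). The cortical cluster held 28 cells that were not macrophage-like by their own markers, and the hippocampal cluster 12. Without these the ratios were 1.01 (0.954 to 1.07) and 1.11 (1.07 to 1.17) for *Tyrobp*. For *Abca1* they were 1.58 (1.34 to 1.86) and 2.42 (2.16 to 2.71). *Abca1* then lay on the same side in both preparations, whereas the cortical *Tyrobp* interval held 1.

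Red blood cell barcodes, which belong to none of the classes compared and served as a background, held UMIs of members. In the cortex the share of the 3265 barcodes was 19.9% for *Apoe*, 3.92% for *Clu*, 1.75% for *Trem2*, 1.59% for *Tyrobp*, 0.245% for *Abca1* and 0.153% for *Scarb1*. In the hippocampus it was 25.6% of 78 for *Apoe* and 5.13% for *Trem2*.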

How the results depend on the processing

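No paired analysis was possible because the replicate numbers mark technical replicates of separate pools and no test was run. Of 304 counts of genes recomputed under the alternatives, 260 stayed within 1.5 times the count of the report. Of 1379 log2 ratios of the 8 genes, 1173 kept within the replicate spread, 198 moved beyond it and 8 turned round. The cause of these changes was not tested.

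Members past 1.5-fold between the preparations came to 1 in microglia-like cells (2 in the report) with cells classed one by one, without doublets or with mean single-cell CPM, and to 0 at a 2-fold limit. Macrophage-like cells gave 0 of 4 genes compared (4 of 5 in the report) with cells classed one by one and with cells chosen by their own markers. Astrocyte-like cells gave 0 (1) with cells classed one by one, a 10% mitochondrial limit, mitochondrial and ribosomal UMIs out of the total or a 2-fold limit, 2 with mean single-cell CPM, a minimum of 30 UMIs or none, and 4 at the lower fold limit. Endothelial-like cells gave 2 (4) without doublets. Pericyte-like cells gave 2 of 3 genes compared (4 of 5 in the report) with cells classed one by one, and 2 of 5 with free RNA subtracted. Without doublets they gave 0 of 3, because *Trem2* and *Tyrobp* fell below the minimum of UMIs. *Trem2*, at a ratio of 0.508 (0.328 to 0.793), was then past the fold limit but not counted. Pathway genes in microglia-like cells came to 18 of 80 (8 of 80 in the report) with free RNA subtracted, 19 at the lower fold limit and 2 at 2-fold. With a minimum of 30 UMIs and none they came to 13 of 91 and 28 of 112. In astrocyte-like cells they came to 9 of 79 (15 of 84 in the report) with cells classed one by one. At the lower fold limit they came to 35, at 2-fold to 4, and without a minimum to 33 of 109. In endothelial-like cells they came to 24 of 75 (10 of 75 in the report) with free RNA subtracted, 28 at the lower fold limit and 5 at 2-fold. With a minimum of 30 UMIs and none they came to 17 of 85 and 36 of 106. No share over all genes is given under these alternatives, so the changed counts are not read as a result about the genes.

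Members past 2-fold between macrophage-like and microglia-like cells came to 6 (3) in the cortex with cells chosen by their own markers and 5 at 1.5-fold, and to 1 (4) in the hippocampus at 4-fold. Between pericyte-like and endothelial-like cells they came to 2 (4) in the cortex with cells classed one by one or with lipid genes among the variable genes, and in the hippocampus to 1 (5) with cells classed one by one, 3 with free RNA subtracted and 2 at 4-fold. Mural cells named at resolution 0.5 gave no value for the 2 cortical pericyte-like counts.

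Leaving out each replicate in turn gave 2 to 2 members in microglia-like, 3 to 4 in macrophage-like, 0 to 2 in astrocyte-like, 4 to 5 in endothelial-like and 4 to 4 in pericyte-like cells between the preparations, and 7 to 9, 12 to 16 and 8 to 12 pathway genes in microglia-like, astrocyte-like and endothelial-like cells. Between classes it gave 3 to 4 (cortex) and 3 to 5 (hippocampus) for macrophage-like against microglia-like, 6 to 7 in both for astrocyte-like against microglia-like, 4 to 7 and 3 to 6 for pericyte-like against endothelial-like, and 4 to 6 for choroid plexus-like against astrocyte-like cells.

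The log2 ratios that turned round were *Trem2* in astrocyte-like cells (-0.21 with cells classed one by one, -0.076 at 10% mitochondrial UMIs), *Tyrobp* in endothelial-like cells (-0.19 without doublets), *Clu* in pericyte-like cells (0.55 without doublets), *Clu* in cortical macrophage-like over microglia-like cells (-0.18 with cells classed one by one, -0.44 without cortical replicate 2, within a range of -0.44 to 2.41 over the replicates left out), and *Apoe* (-0.39) and *Clu* (-0.064) in cortical pericyte-like over endothelial-like cells without doublets. Not counted among them were *Trem2* and *Tyrobp* in pericyte-like cells, with ratios of 0.508 and 0.923 without doublets on under 100 UMIs each. Depth limits *Lpl*, *Abcg1* and *Scarb1* in the classes where they had under 100 UMIs.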
